A study of Mus musculus with 13 samples.

Results

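Capillary endothelial cells line the finest vessels of muscle. Here they were chosen by their own transcripts from 2 droplet single-cell libraries of mononuclear cells from uninjured mouse hindlimb muscle. A cell was taken when it held UMIs (unique molecular identifiers, each standing for 1 captured transcript molecule) of at least 2 of the 5 pan-endothelial genes Pecam1, Cdh5, Cldn5, Egfl7 and Kdr, and of at least 2 of the 5 capillary genes Timp4, Car4, Cd300lg, Aqp7 and Gpihbp1. It could hold at most 1 of the 4 arterial genes Stmn2, Sema3g, Gja5 and Alpl, at most 1 of the 3 venous genes Vwf, Selp and Lrg1, and no UMI of the leukocyte gene Ptprc. This rule found 1017 of 6144 cells in library 1 and 710 of 6297 in library 2, or 1727 of 12441 cells in all.

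The mice were C57BL/6, wild type and 2 months old, and nothing in the labels says whether the libraries came from separate animals or from pools. The series also holds 11 bulk libraries of sorted muscle cells, all from wild-type C57BL/6 mice of the same age. SMMC (smooth-muscle and mesenchymal-like cells) were sorted as negative for CD31, CD45, Sca1 and Vcam1 and positive for ITGA7. They were measured fresh (n = 3), proliferating after 3 days of culture (n = 3) and differentiating in culture (n = 3). Freshly sorted MuSC (muscle stem cells, n = 2) differed from them in the gate by being Vcam1-positive. CD31 is the product of Pecam1, so the bulk sort was set against endothelial cells.

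Capillary endothelium carries out the exchange between blood and muscle fibres. In muscle and heart it is known for taking up fatty acids: lipoprotein lipase (Lpl) is made by neighbouring cells, carried across and held on the luminal surface by Gpihbp1, and the fatty acids it frees pass inward with the help of Cd36 and Fabp4. The same cells sense VEGF through Kdr and Flt1, hold each other through Cdh5 and Cldn5, and carry proteins of water and bicarbonate exchange such as Aqp1 and Car4.

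The rule genes were far higher in the chosen cells than in all other cells of the same library, as the rule requires. These levels are a description with no test, in CPM, the gene's share of all UMIs of the summed cells on the usual CPM scale. Gpihbp1 stood at 1598 CPM in capillary cells of library 1, against 51.2 CPM in all other cells, and at 1011 CPM in library 2, against 48.4. Timp4, an inhibitor of matrix metalloproteinases, stood at 1197 and 936 CPM in capillary cells of libraries 1 and 2, against 30.6 and 24.8 CPM in all other cells. Car4, a surface carbonic anhydrase, stood at 380 and 341 CPM in capillary cells, against 6.99 and 9.91 CPM. Cd300lg, a receptor of the endothelial surface, stood at 574 and 436 CPM in capillary cells, against 19.1 and 16.9 CPM. Aqp7, a channel for water and glycerol, stood at 372 and 347 CPM in capillary cells, against 12.5 and 10.6 CPM. The rule fixes these gaps in each library, and all 5 genes were lower in library 2 than in library 1.

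Few of the cells held the whole set. All 5 capillary genes were seen in 48 cells (6.76%) of library 2 and 136 cells (13.4%) of library 1, while exactly 2 were seen in 324 cells (45.6%) of library 2 and 262 cells (25.8%) of library 1. Gpihbp1 was the gene most often seen, in 80.9% of capillary cells of library 2 and 92.0% of library 1, against 3.81% and 3.55% of the cells that were not endothelial (fewer than 2 pan-endothelial genes, or a Ptprc UMI). Car4 was seen in 40.7% of capillary cells of library 2 and 45.3% of library 1, against 1.53% and 0.770% of cells that were not endothelial. These shares depend on depth, and after thinning to 1000 UMIs a cell Gpihbp1 was seen in 62.7% of capillary cells of library 2 and 76.4% of library 1, against 1.83% and 1.74%. The median capillary cell held 1497 UMIs in library 2 and 1912 in library 1, and the median cell that was not endothelial held 2176 in library 2 and 2713 in library 1.

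Cells just outside the threshold held 1 capillary gene and passed every other part of the rule, and there were 388 of them in library 2 and 171 in library 1. In library 1 the cells with exactly 2 capillary genes, just inside, had 6489 CPM of Aqp1, 541 CPM of C1qtnf9 and 251 CPM of Meox2, and the cells with 1 had 3731, 336 and 186 CPM. In library 2 the cells with exactly 2 had 4309, 296 and 104 CPM of these genes, and the cells with 1 had 3782, 204 and 61.9 CPM. Ccl21a, made by lymphatic endothelium, stood at 2916 CPM in the cells with 2 capillary genes in library 1, and at 2.89 CPM in those with 3.

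Transcripts of other cell types were present in the gate. Of 10 pericyte markers, 0 were at least 2-fold higher and 0 at least 2-fold lower than in all other cells in both libraries, and their summed level was 1360 CPM in capillary cells against 697 CPM in all other cells of library 1, and 783 against 733 CPM in library 2. The signal was concentrated: 76 cells of library 1 (7.47%) and 47 of library 2 (6.62%) held at least 2 pericyte genes, and these carried 72.9% and 73.7% of the class's UMIs of Rgs5, a pericyte gene. At least 3 of 8 lymphatic genes were held by 6 cells of library 1 and 3 of library 2, which carried 98.9% and 41.6% of the Ccl21a UMIs. All 10 markers of fibro-adipogenic progenitors, all 10 of leukocytes and all 7 of tenocytes were at least 2-fold lower in capillary cells than in all other cells in both libraries. Haemoglobin and other red blood cell genes summed to 508 CPM in capillary cells against 447 CPM in all other cells of library 1, and to 1851 against 676 CPM in library 2. The median capillary cell held none of these UMIs in either library, and the highest held 51.3% of its UMIs in library 2. Scrublet, which flags barcodes that look like 2 cells mixed, called 8 capillary cells in library 1 (0.787%) and 12 in library 2 (1.69%), beside 0.846% and 0.873% of all cells. The libraries shared 53 cell barcodes, of which 1 was a capillary cell in both. Results were computed again without the cells with pericyte genes, those with lymphatic genes and the called doublets, and the values are given where a call was lost.

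The class was 11.3% of the cells in library 2 (95% exact binomial interval 10.5 to 12.1) and 16.6% in library 1 (15.6 to 17.5). Of cells with at least 2 pan-endothelial genes and no Ptprc UMI, it was 38.1% in library 2 and 69.2% in library 1. These intervals cover counting error only. After every cell was thinned to 1000 UMIs, which left out 327 cells of library 2 and 186 of library 1, the class was 7.02% of cells in library 2 and 12.3% in library 1. With 1 library on each side there is no test of this difference.

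Outside the rule, Thrsp, Ablim3 and C1qtnf9 led the genes higher in capillary cells than in all other cells. Of 13359 genes with enough UMIs, leaving out the 18 of the rule, 395 (2.96%) were at least 4-fold higher in capillary cells in both libraries. Another 937 genes (7.01%) were at least 4-fold lower in both. The 4-fold set of library 1 held 752 genes and that of library 2 held 465, so that the genes common to both were 52.5% of the first and 85.0% of the second. Because the cells were chosen on genes that go with these, the contrast is described and not tested.

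The 20 leading genes by the smaller of the 2 libraries' ratios fell into several roles. Of transcription factors, Tcf15, which takes part in fatty acid uptake by heart and muscle endothelium, stood at 879 and 664 CPM in capillary cells of libraries 1 and 2, against 46.3 and 73.8 CPM in all other cells. Sox18 stood at 608 and 303 CPM in capillary cells, against 33.6 and 32.2 CPM, and Sox17 at 934 and 942 CPM, against 61.1 and 115 CPM. Sox17 and Sox18 are members of the SoxF group that acts in vessel formation. In these 3 genes both capillary values were above both values of the rest, which naming genes by their ratio makes likely and which tests nothing. C1qtnf9, a secreted relative of adiponectin, stood at 789 and 455 CPM in capillary cells, against 31.5 and 40.4 CPM in all other cells. Caveolae, the flask-shaped pits of the endothelial surface, were represented by Cav2 at 1370 and 883 CPM, against 81.0 and 83.0 CPM, and by Sdpr (Cavin2) at 2300 and 1116 CPM, against 156 and 113 CPM.

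Transporters and channels were also among the 20. Slc28a2, a carrier of nucleosides, stood at 208 and 127 CPM in capillary cells of libraries 1 and 2, against 18.9 and 12.4 CPM in all other cells. Slc1a1, a carrier of glutamate and cysteine, stood at 109 and 190 CPM in capillary cells, against 4.54 and 22.4 CPM. Kcna5, a voltage-gated potassium channel, stood at 182 and 201 CPM in capillary cells, against 10.9 and 19.2 CPM. The chloride channel family member Clic5 and the scaffold Slc9a3r2 were also among the 20. Of the rest, Thrsp, known in liver and fat as a thyroid hormone responsive gene, stood at 175 and 118 CPM in capillary cells, against 10.9 and 9.21 CPM. Its ratio to all other cells was 16.0-fold in library 1 and 12.8-fold in library 2. Ablim3, Ushbp1, Kank3, Afap1l1, Ccdc85a, Lims2, Fam89a and Unc45b completed the list, with ratios from 8.56-fold to 23.6-fold.

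**Figure D1:**
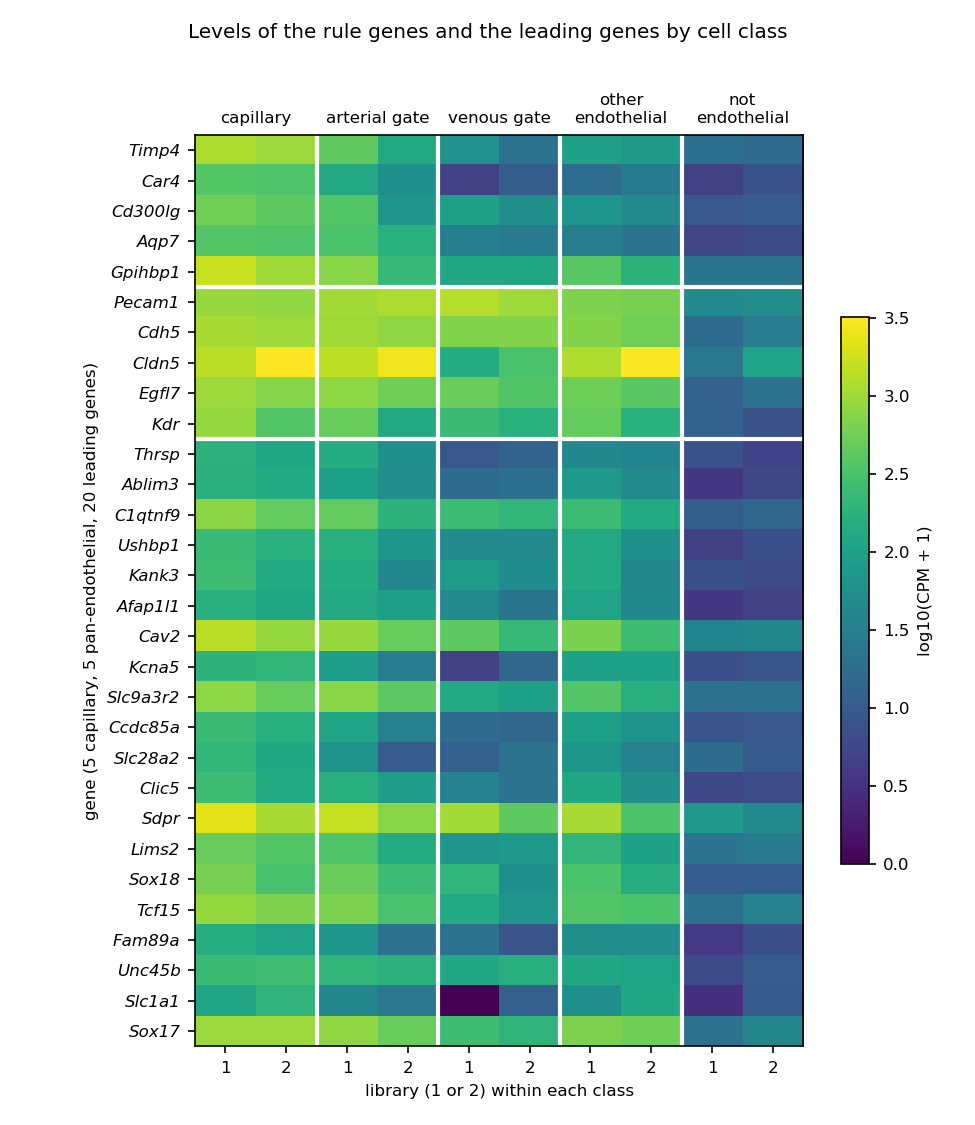
Heat map of log10(CPM + 1) for the 5 capillary, 5 pan-endothelial and 20 leading genes (rows) in 5 cell classes of each single-cell library (columns). Gpihbp1 at 1598 and 1011 CPM and Timp4 at 1197 and 936 CPM are bright in capillary cells, the arterial gate is the next brightest for most capillary genes, and cells that are not endothelial are low.

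**Figure D2:**
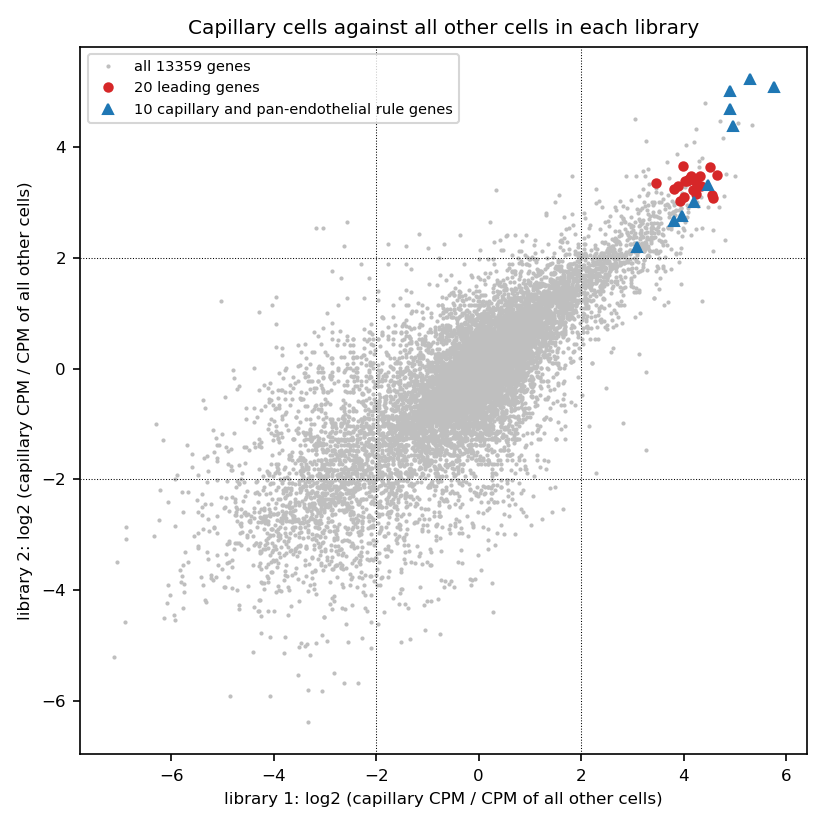
Log2 ratio of capillary CPM to the CPM of all other cells, library 1 on the x axis and library 2 on the y axis, each point a gene and dotted lines at 4-fold. The 20 leading genes (circles) lie above 3 in both libraries, beside the rule genes (triangles), and 395 of the 13359 genes lie beyond 4-fold higher in both.

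Promoter letters are shown for 2 rule genes and 1 leading gene, because transcription factors of the ETS family act in nearly all endothelial genes and the presence of their site can be read from sequence. The 250 bases before the start of transcription are from RefSeq on GRCm38.p6, 5′ to 3′ along the gene, and capitals mark each CAGGAAG or CCGGAAG on either strand. Timp4 lies on the minus strand (chr6:115252206-115252455), Car4 on the plus strand (chr11:84957504-84957753) and C1qtnf9 on the plus strand (chr14:60767884-60768133).
Timp4: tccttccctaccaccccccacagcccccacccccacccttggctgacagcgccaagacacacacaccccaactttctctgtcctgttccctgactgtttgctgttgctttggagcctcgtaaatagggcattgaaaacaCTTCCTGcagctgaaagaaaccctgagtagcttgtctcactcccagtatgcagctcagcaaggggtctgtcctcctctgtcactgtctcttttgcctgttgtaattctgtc
Car4: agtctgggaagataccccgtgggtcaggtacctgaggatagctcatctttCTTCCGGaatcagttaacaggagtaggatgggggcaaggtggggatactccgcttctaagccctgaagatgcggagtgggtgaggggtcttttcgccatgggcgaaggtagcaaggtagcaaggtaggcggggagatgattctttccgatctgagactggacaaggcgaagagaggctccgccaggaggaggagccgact
C1qtnf9: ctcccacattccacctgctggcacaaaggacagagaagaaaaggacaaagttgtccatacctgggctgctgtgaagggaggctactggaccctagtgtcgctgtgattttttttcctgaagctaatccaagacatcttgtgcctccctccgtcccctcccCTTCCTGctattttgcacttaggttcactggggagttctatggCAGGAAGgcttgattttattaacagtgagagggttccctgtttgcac
The match begins 111 bases before the start in Timp4 and 200 bases before it in Car4, both on the opposite strand. C1qtnf9 has 2 matches, beginning 90 bases before the start on the opposite strand and 47 bases before it on the gene's strand. Over windows of 300 bases, 250 before to 50 after the start, either motif was found in 20.9% of 32851 promoters. It was found in 4 of 14 promoters of the leading genes (28.6%, 13 genes matched) and in 2 of 4 promoters of the capillary rule genes (3 genes matched). A match describes letters only.

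Genes of lipid uptake were at least 2-fold higher than in all other cells more often than the background share. Of 25 genes on the list, 11 were at least 2-fold higher in capillary cells in both libraries, 9 of them at least 4-fold, and 4 were at least 2-fold lower. The background was 10.0% at least 2-fold higher and 16.3% at least 2-fold lower, so the lower count is near the share over all genes. These 2 shares are the background of each list count against all other cells that follows. The median log2 ratio of the list was 0.74 in library 1 and 1.05 in library 2, beside 0.01 and -0.11 over all genes. Fabp4, the fatty acid binding protein, was among the most abundant transcripts of the class, at 16040 and 11430 CPM in capillary cells of libraries 1 and 2, against 1042 and 1519 CPM in all other cells. Cd36, the fatty acid translocase, stood at 2172 and 1628 CPM in capillary cells, against 153 and 237 CPM. Lpl itself stood at 1044 and 670 CPM in capillary cells, against 200 and 157 CPM in all other cells. Pparg, the receptor that drives fatty acid handling genes, stood at 59.8 and 72.1 CPM in capillary cells, against 6.75 and 9.84 CPM. Among the lower genes were the lipoprotein receptor gene Vldlr, the fatty acid carrier gene Slc27a1 and the channel gene Aqp3. Vldlr had 1.84 CPM in capillary cells of library 1 and was listed at 0 in library 2, against 18.7 and 12.2 CPM in all other cells.

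Among 14 genes known from capillaries but outside the rule, 13 were at least 2-fold higher and 11 at least 4-fold higher. This list shares Cd36, Fabp4, Fabp5, Lpl, Meox2, Tcf15 and Rbp7 with the lipid list, so the 2 counts are not separate. Rgcc, a regulator of the cell cycle, stood at 1992 and 2365 CPM in capillary cells, against 209 and 483 CPM. The exception was Ifi27l2a, an interferon-induced gene, at 71.3 and 55.6 CPM in capillary cells, against 436 and 192 CPM. Of 18 transporter genes tested, 8 were at least 2-fold higher, 6 of them at least 4-fold, and 1 was at least 2-fold lower. Aqp1, the water channel, stood at 7467 and 4927 CPM in capillary cells of libraries 1 and 2, against 288 and 648 CPM in all other cells. The efflux pumps Abcb1a (164 and 122 CPM, against 12.6 and 16.1 CPM) and Abcg2 (269 and 198 CPM, against 23.9 and 46.5 CPM) were in the high group. Mfsd2a, the lipid carrier of the blood-brain barrier, was listed at 0 in capillary cells of library 1 and at 1.57 CPM in library 2. The glucose carrier Slc2a1 stood at 18.9 and 36.0 CPM, against 34.6 and 41.4 CPM. Against the venous gate, defined below, 6 of 14 transporter genes tested in edgeR were higher in capillary cells, Abcb1a among them. Another 4 were lower, among them Abcg2 and Slc2a1. After thinning, Abcg2 was seen in 23.1% and 18.6% of capillary cells of libraries 1 and 2. In the venous gate Abcg2 was seen in 31.9% and 26.8% of cells.

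Against all other cells, genes of vessel growth and vessel identity were mostly high. Of 29 endothelial identity genes, 25 were at least 2-fold higher and 20 at least 4-fold higher, with 0 at least 2-fold lower. This list summed to 12320 and 11080 CPM in capillary cells of libraries 1 and 2. It summed to 11130 and 9255 CPM in the arterial gate and to 10280 and 9206 CPM in the venous gate. In edgeR, 2 of the 29 were higher and 1 lower than in the arterial gate, beside 1.75% and 2.87% of all genes. Of 15 genes of the VEGF, angiopoietin and apelin pathways, 10 were at least 2-fold higher. Another 2 were at least 2-fold lower, which is near the background share of 16.3%. The receptors led: Flt1 stood at 1480 and 1172 CPM in capillary cells of libraries 1 and 2, against 102 and 191 CPM in all other cells, and the co-receptor Nrp1 at 1397 and 809 CPM, against 128 and 119 CPM. The apelin receptor gene Aplnr stood at 95.6 and 76.8 CPM, against 2.85 and 3.51 CPM. The ligand Vegfa was in the lower group, at 8.74 and 10.2 CPM in capillary cells, against 41.5 and 30.7 CPM. The list of these pathways summed to 4282 and 3206 CPM in capillary cells. It summed to 3692 and 2709 CPM in the arterial gate and to 2980 and 2409 CPM in the venous gate.

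Of 15 Notch pathway genes, 9 were at least 2-fold higher and 1 at least 2-fold lower. The ligand Dll4 stood at 145 and 78.4 CPM in capillary cells, against 9.78 and 14.1 CPM in all other cells, and the target Hes1 at 1345 and 933 CPM, against 209 and 195 CPM. Notch4 stood at 36.3 and 28.2 CPM in capillary cells, against 3.14 and 4.64 CPM, while Notch2, a receptor used widely outside vessels, stood at 9.66 and 17.2 CPM, against 67.4 and 66.8 CPM. Of 14 junction genes, 10 were at least 2-fold higher and 0 lower, among them Esam at 893 and 882 CPM, against 65.4 and 126 CPM. Junction genes summed to 3076 and 2465 CPM in capillary cells. They summed to 2579 and 1976 CPM in the arterial gate and to 4121 and 3603 CPM in the venous gate. Of 9 caveolar genes, 6 were at least 2-fold higher and 0 lower. Caveolar genes summed to 7809 and 4695 CPM in capillary cells. They summed to 6244 and 4099 CPM in the arterial gate and to 5339 and 3115 CPM in the venous gate.

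Of 24 ligands that act on neighbouring cells, 8 were at least 2-fold higher, and 4 were at least 2-fold lower, which is near the background share of 16.3%. Cxcl12, a chemokine, stood at 1489 and 894 CPM in capillary cells of libraries 1 and 2, against 237 and 177 CPM, and Kitl, the ligand of Kit, at 523 and 326 CPM, against 44.4 and 65.8 CPM. Pdgfb, the signal that recruits pericytes, stood at 75.9 and 29.0 CPM, against 5.01 and 7.66 CPM. Igf1 was in the lower group, at 26.2 and 18.8 CPM in capillary cells, against 180 and 87.1 CPM. Of 16 basement membrane genes, 7 were at least 2-fold higher and 1 lower, with Igfbp7 at 4253 and 4785 CPM, against 1139 and 1540 CPM. Of 22 genes of clotting and vessel tone, 7 were at least 2-fold higher and 3 lower, the latter near the background share of 16.3%. Thbd, the receptor that turns thrombin against clotting, stood at 461 and 386 CPM, against 109 and 154 CPM. Nos3, which makes nitric oxide, stood at 70.4 and 80.7 CPM, against 8.32 and 22.9 CPM.

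Against all other cells, interferon genes were high and MHC class II genes low. Of 20 interferon response genes, 17 were at least 2-fold higher in capillary cells than in all other cells and 0 lower. Other endothelial cells had similar levels. The list summed to 10580 and 16170 CPM in capillary cells of libraries 1 and 2. It summed to 10440 and 15360 CPM in the arterial gate and to 12890 and 15910 CPM in the venous gate, both defined below. Iigp1 stood at 1019 and 1790 CPM in capillary cells of libraries 1 and 2, against 83.8 and 380 CPM in all other cells, and Ifitm3 at 3538 and 5467 CPM, against 1327 and 2115 CPM. Of 10 genes of MHC class I presentation, 1 was at least 2-fold higher, which is the background share of 10.0%. B2m stood at 4954 and 4847 CPM, against 2663 and 2237 CPM. All 6 MHC class II genes were at least 2-fold lower, and Cd74, the invariant chain, stood at 309 and 295 CPM in capillary cells, against 4656 and 4478 CPM. The 2 gates were not above capillary cells. The class II list summed to 790.5 and 788.3 CPM in capillary cells of libraries 1 and 2. It summed to 566.9 and 714.1 CPM in the arterial gate and to 187.5 and 516.1 CPM in the venous gate. In edgeR, H2-Aa, H2-Eb1 and Cd74 were higher than in the venous gate, 3 of 4 tested, beside 10.1% of all genes.

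Immediate early and heat shock genes were abundant: 12 of 20 were at least 2-fold higher and 0 lower. Hspa1a, an inducible heat shock gene, stood at 13900 and 7163 CPM in capillary cells of libraries 1 and 2, against 5527 and 1951 CPM in all other cells. The flow-responsive factors Klf2 (5108 and 1858 CPM, against 1287 and 722 CPM) and Klf4 (1515 and 871 CPM, against 460 and 387 CPM) were also high, and 8 of 15 on that list were at least 2-fold higher. The immediate early and heat shock list summed to a median of 5.40% of a capillary cell's UMIs in library 1, against a median of 1.28% in all other cells. In library 2 the medians were 3.56% in capillary cells and 1.14% in all other cells. Dissociation is known to induce these genes, and its part in the levels was not tested. Of 19 cell cycle genes tested, 1 was at least 2-fold higher and 0 lower, beside 10.0% and 16.3% of all genes. Their sum was 298 and 335 CPM in capillary cells of libraries 1 and 2, against 211 and 191 CPM in all other cells. Pcna was seen in 28.5% of capillary cells of library 1, against 20.9% of cells that were not endothelial. Mki67 and Birc5 were near the limit of detection. Mki67 was seen in 1 of 1017 capillary cells of library 1 and 1 of 710 of library 2, against 0.727% and 0.384% of the cells that were not endothelial. Birc5 was seen in 0 of 1017 capillary cells of library 1, which limits the share of cells with a captured UMI to 0.295% and not the share expressing it, and in 2 of 710 (0.282%) of library 2. After thinning to 1000 UMIs, Mki67 was seen in 0.107% and 0.162% of capillary cells, against 0.195% and 0.0695% of cells that were not endothelial, so no difference was detectable at this depth.

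The genes lowest against all other cells were those of leukocytes and fibroblasts. Besides Cd74 they were the complement gene C3, the fibroblast genes Pi16 and Mfap5, and the leukocyte genes Ccl5, Rac2, Cd52 and Ltb. C3 stood at 6.90 and 9.40 CPM in capillary cells of libraries 1 and 2, against 260 and 139 CPM in all other cells.

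Against cells of the venous gate, 10 of the 17 lipid genes tested were higher in capillary cells and 14 of the 17 venous genes outside the rule were lower. The venous gate held at least 2 pan-endothelial genes, at least 2 of Vwf, Selp and Lrg1, at most 1 arterial gene and no Ptprc UMI, in 264 cells of library 2 and 69 of library 1. UMIs were summed per library and gate and fitted with edgeR's quasi-likelihood test with the library as a block, in 6 sums with 2 residual degrees of freedom and without the 18 rule genes. Both gates were cut from the same cells, so genes that go with the rule genes were used in part, and these p-values say only how alike the gap was in the 2 libraries. Of 6735 genes, 682 (10.1%) were higher and 790 (11.7%) lower in capillary cells at an adjusted p under 0.05, or 21.9% in either direction. Without the block, 205 were higher and 255 lower, and all 460 were among those called with it. DESeq2 with the block called 267 higher and 447 lower.

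Lpl had 1044 and 670 CPM in capillary cells of libraries 1 and 2, against 43.0 and 43.9 CPM in the venous gate. Its log2 fold change was 4.05 ± 0.31 (SE), with an edgeR adjusted p of 1.68e-08. Slc26a10 had 84.1 and 131 CPM in capillary cells, against 7.81 and 1.22 CPM. Prdm16, a transcription factor known in brown fat and arterial endothelium, had 78.2 and 39.2 CPM in capillary cells, against 3.91 and 1.22 CPM. Kcna5 had 182 and 201 CPM in capillary cells, against 3.91 and 13.4 CPM, and Sept4 had 307 and 244 CPM, against 23.4 and 12.2 CPM. Slc1a1, Pgf, Milr1 and Tnf were also among the 10 largest increases. Pgf, a placental growth factor, had 15.6 and 172 CPM in capillary cells, against 0 and 12.2 CPM. Ndufa4l2, a pericyte marker, completed the 10, at 100 and 59.6 CPM against 7.81 and 2.44 CPM in the venous gate. Without the cells holding at least 2 pericyte genes its log2 fold change was 0.47 and its adjusted p 0.793.

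Ackr1, the chemokine receptor of venules, had 5.06 and 17.2 CPM in capillary cells of libraries 1 and 2, against 1500 and 2948 CPM in the venous gate. Its log2 fold change was -7.81 ± 0.31 (SE), with an edgeR adjusted p of 1.47e-12. Plvap, which forms the diaphragms of fenestrae, had 42.8 and 68.2 CPM in capillary cells, against 2140 and 1984 CPM. The adhesion molecule Sele had 0 and 5 UMIs in capillary cells, against 107 and 169 UMIs in the venous gate. Csf3, a growth factor of neutrophils, had 4.14 and 106 CPM in capillary cells, against 2297 and 5804 CPM. Cytl1, Olr1, Slco2a1, Nt5e, Mctp1 and Tnfrsf11a made up the 10 largest decreases, each at 0 to 7.05 CPM in capillary cells. By DESeq2 with the block, Sele and Olr1 did not pass, at adjusted p of 0.232 and 0.0552.

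By gene list, the contrast with the venous gate ran as follows. Of 14 capillary genes outside the rule, 11 were higher and 0 lower, with a median log2 fold change of 2.25, beside 0.05 over all genes. Of 17 lipid genes tested, 10 were higher and 1, Abca1, lower. Cd36, Fabp4, Lpl, Meox2, Tcf15 and Rbp7 were higher and are counted in both of these lists. Of 17 venous genes outside the rule, 14 were lower and 1, Aqp1, higher. Notch genes were 6 higher and 1 lower of 14, with Dll4 at 145 and 78.4 CPM in capillary cells, against 11.7 and 7.32 CPM in the venous gate. Immediate early and heat shock genes were 16 higher and 0 lower of 20, and Hspa1a had 13900 and 7163 CPM in capillary cells, against 1375 and 594 CPM. Genes of clotting and tone leaned to the venous side, with 3 higher and 10 lower of 19. Interferon genes were 4 higher and 3 lower of 20, beside 10.1% and 11.7% of all genes. The pericyte list was 8 higher and 0 lower of 9, and 3 of 3 red blood cell genes were higher. Pericyte markers summed to 1360 and 783 CPM in capillary cells, against 106 and 133 CPM in the venous gate. Without cells with pericyte genes, 631 genes were higher and 777 lower.

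The arterial gate held at least 2 pan-endothelial and at least 2 arterial genes, at most 1 venous gene and no Ptprc UMI, in 88 cells of library 2 and 125 of library 1. Neither gate limited capillary genes. Only the arterial or venous limit kept 101 cells of library 1 and 47 of library 2 out of the class. The 5 capillary rule genes summed to 2039 and 647.5 CPM in the arterial gate and to 316.4 and 220.8 CPM in the venous gate. In capillary cells they summed to 4120 and 3071 CPM. In the same edgeR fit 118 of 6735 genes (1.75%) were higher and 193 (2.87%) lower in capillary cells, or 4.62% in either direction. Without the block, 1 was higher and 16 lower, and DESeq2 with the block called 34 higher and 99 lower. All 17 calls made without the block were among the 311 made with it.

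Aqp1 had 7467 and 4927 CPM in capillary cells of libraries 1 and 2, against 1464 and 467 CPM in the arterial gate. Its log2 fold change was 2.79 ± 0.26 (SE), with an edgeR adjusted p of 7.25e-07. Aplnr had 95.6 and 76.8 CPM in capillary cells, against 18.6 and 4.76 CPM. The chemokine Cxcl10 had 130 and 505 CPM in capillary cells, against 10.6 and 71.4 CPM, and Cxcl9 had 139 and 216 UMIs, against 1 and 2 UMIs. After thinning to 1000 UMIs Cxcl9 did not pass, with an edgeR adjusted p of 0.0615. Fmo2, an oxidising enzyme, had 421 and 117 UMIs in capillary cells, against 7 and 0 UMIs. Nts, the neurotensin gene, had 294 and 64 UMIs, against 3 and 2 UMIs. The other 4 of the 10 largest increases were Ccl21a, which lymphatic endothelium makes, and Chad, Fmod and Angptl7, of which Chad and Fmod were on the tenocyte list. Ccl21a had 1417 and 373 UMIs, against 1 and 1 UMI. At the stricter rule of at least 3 capillary genes its log2 fold change was 2.36, with an adjusted p of 0.178. Without the cells with pericyte genes Chad, Fmod and Angptl7 no longer passed, with adjusted p of 0.612, 0.168 and 0.131.

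Of the arterial side, Gkn3, a gene known from arterial endothelium, had 0 and 0 UMIs in capillary cells, against 13 and 48 UMIs in the arterial gate. Clu, a secreted chaperone, had 54.7 and 50.1 CPM in capillary cells of libraries 1 and 2, against 540 and 1319 CPM, a log2 fold change of -4.06 ± 0.35 (SE). Cytl1, Pthlh, Kcnn4, Bmx, Nebl, Sema4b, Fam107a and Sdcbp2 were the others, with 12 or fewer UMIs in capillary cells of either library. Bmx, a kinase of arterial endothelium, had 4 and 1 UMIs in capillary cells, against 6 and 27 UMIs. Of 18 arterial genes outside the rule, 12 were lower and 0 higher. Gja4, a gap junction gene of arteries, had 21.6 and 13.3 CPM in capillary cells, against 192 and 428 CPM. Of the 14 capillary genes outside the rule, 6 were higher and 2 lower. Rbp7, a retinol binding protein, was among the lower, at 156 and 91.7 CPM in capillary cells, against 700 and 181 CPM. Of 17 lipid genes tested, 4 were higher and 1, Rbp7, lower, beside 1.75% and 2.87% of all genes. Fabp5, Lpl and Tcf15 among the higher, and Rbp7, are also counted in the capillary list. The lipid list summed to 24160 and 17260 CPM in capillary cells, against 20810 and 9570 CPM in the arterial gate. Of the Klf list, the heat shock list and the MHC class I list, 0 genes passed in either direction in edgeR. The interferon list was 2 higher and 0 lower of 20, beside 1.75% and 2.87% of all genes. The tenocyte list was 4 higher and 0 lower of 6, with a sum of 443 and 804 CPM in capillary cells, against 71.9 and 162 CPM in the arterial gate. The part of these transcripts in the other calls was not tested.

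**Figure D3:**
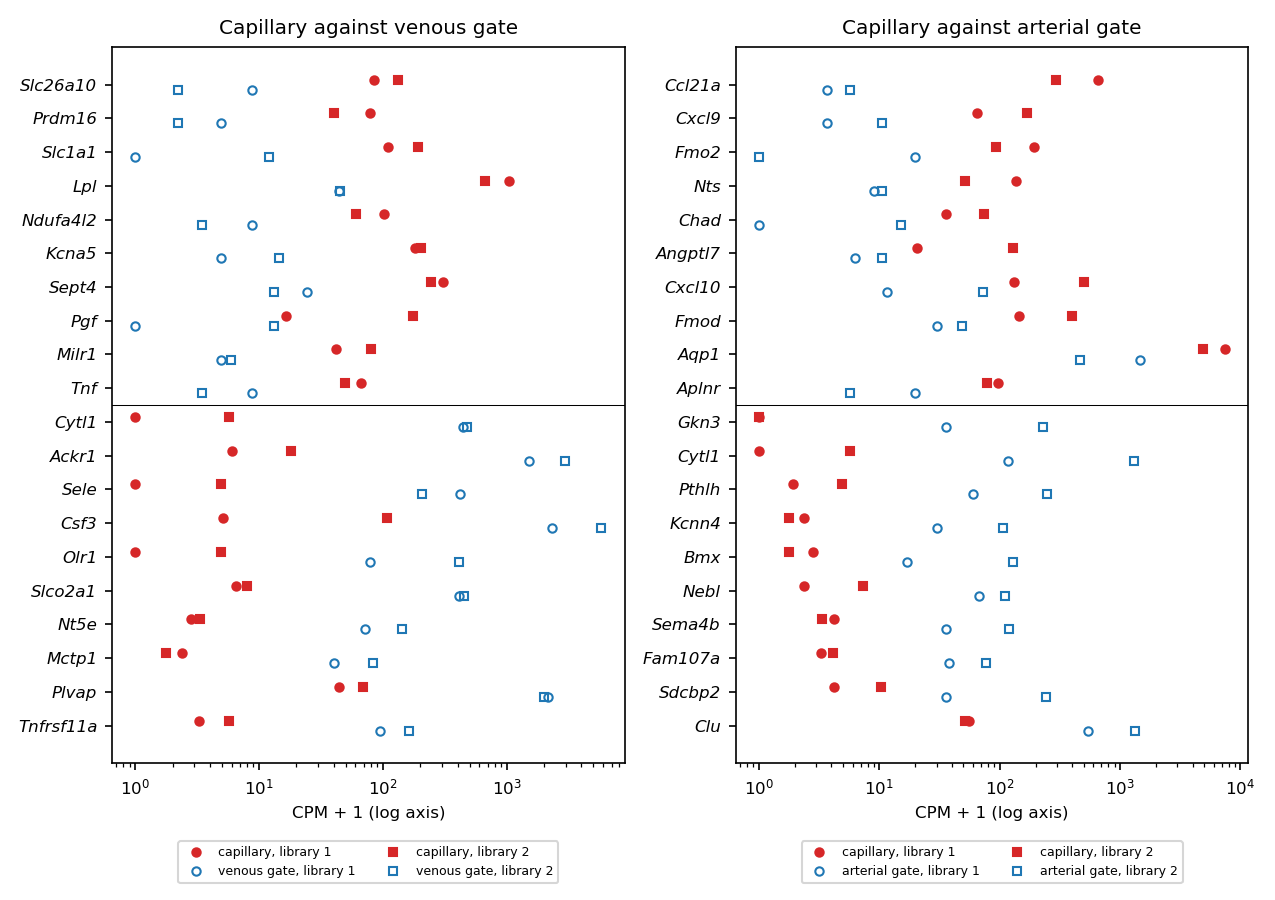
CPM + 1 on a log axis of the 20 genes named for each contrast, filled symbols for capillary cells and open symbols for the venous gate (left panel) or arterial gate (right panel), circles for library 1 and squares for library 2. Genes higher in capillary cells include Lpl at 1044 and 670 CPM against 43.0 and 43.9 CPM, and genes lower in them include Ackr1 at 5.06 and 17.2 CPM against 1500 and 2948 CPM.

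Among the cells of the class, Ccl21a, Hspa1a and Malat1 varied most. Variance over mean of depth-scaled counts was ranked over 2263 genes, with a median of 1.23 in library 1 and 1.19 in library 2. Ccl21a ranked first, with its UMIs in 1.97% of capillary cells of library 1 and 2.54% of library 2. Hspa1a ranked next, at 29.8 in library 1 and 33.3 in library 2, and was seen in 89.9% of capillary cells of library 1 and 72.1% of library 2. Malat1 and the metallothionein Mt1 followed, with ratios of 17.8 and 14.9 for Mt1. Gdf15, a stress cytokine, was seen in 4.92% of capillary cells of library 1 and 8.45% of library 2, with a ratio of 10.3 and 11.97. Cd74, Dcn, Gsn, Fmod and Col1a1, defining genes of leukocytes, fibroblasts and tenocytes, made up the first 10. Lipid genes had a median of 2.49% of UMIs in library 1 in capillary cells and 1.74% in library 2.

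The class differed between the libraries, and many of the genes differed in all other cells too. Of 9767 genes, 458 (4.69%) were at least 2-fold higher and 848 (8.68%) at least 2-fold lower in library 2 than in library 1. There is no test with 1 library on each side. TMM scaling shifted all log2 ratios by 0.15 and gave 642 higher and 601 lower. Hmox1, heme oxygenase, stood at 3158 CPM in capillary cells of library 2 and 550 CPM in library 1, a log2 ratio of 2.52, beside 1.49 in all other cells. Csf3 stood at 106 CPM in library 2 and 4.14 CPM in library 1, a log2 ratio of 4.60, beside 3.51 in all other cells. The Csf3 ratio was 3.55 at the stricter rule of at least 3 capillary genes, 3.87 with no arterial or venous UMI and 3.89 without the cells with lymphatic genes. Vcam1, an adhesion molecule of activated endothelium, stood at 118 CPM in library 2 and 15.2 CPM in library 1, a log2 ratio of 2.94, beside 1.12 in all other cells. The Vcam1 ratio was 1.92 without the 3 cells of library 2 and 6 of library 1 with lymphatic genes, 1.79 at the stricter rule and 2.12 after thinning. In library 2 Vcam1 stood at 193 CPM in the cells with 2 capillary genes and at 71.0, 49.3 and 16.8 CPM in those with 3, 4 and 5. Pgf stood at 172 CPM in library 2 and 15.6 CPM in library 1, a log2 ratio of 3.45, beside 1.58, and 5.36 at the stricter rule. Gal, Hivep2, Angptl7 and Tnip1 were the other 4 of the 8 highest.

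Of 20 interferon genes, 8 were at least 2-fold higher in library 2, with a median log2 ratio of 0.87 in capillary cells and 1.498 in all other cells, among them Ifit1 at 631 CPM in library 2 and 185 CPM in library 1. Kdr, the main VEGF receptor and a rule gene left out of these counts, was at 370 CPM in library 2 and 895 CPM in library 1. Of the 5 pan-endothelial rule genes, 1 was at least 2-fold higher and 1 at least 2-fold lower in library 2, beside 4.69% and 8.68%. Cldn5 went the other way, with 4064 UMIs in 710 capillary cells of library 2 and 2962 UMIs in 1017 of library 1. Lower in library 2 outside the rule was Klf2, at 1858 CPM in library 2 and 5108 CPM in library 1. Arhgap29, Hspa12b and Fbxo22 were among the 8 lowest as well, with log2 ratios of -1.32, -1.40 and -1.41. Nts had a log2 ratio of -1.42 in capillary cells and 2.37 in all other cells, and after thinning to 1000 UMIs it was 0.043 in capillary cells, and without the cells with lymphatic genes -0.59. Acta2 and Myl9, smooth muscle genes, were also lower in library 2, at -1.72 and -1.71. Without cells with pericyte genes the ratio of Acta2 was 0.68, and that of Myl9 -0.76. The leukocyte gene Lyz2 was at -1.57, and at 1.98 after thinning. Cells of the class in library 2 were also shallower, with a median of 1497 UMIs against 1912 in library 1, and after thinning to 1000 UMIs 355 genes were at least 2-fold higher and 695 at least 2-fold lower in library 2. Among the named genes thinning moved Gal to 3.44, Hivep2 to 2.77, Angptl7 to 1.43 and Fbxo22 to -2.08.

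**Figure D4:**
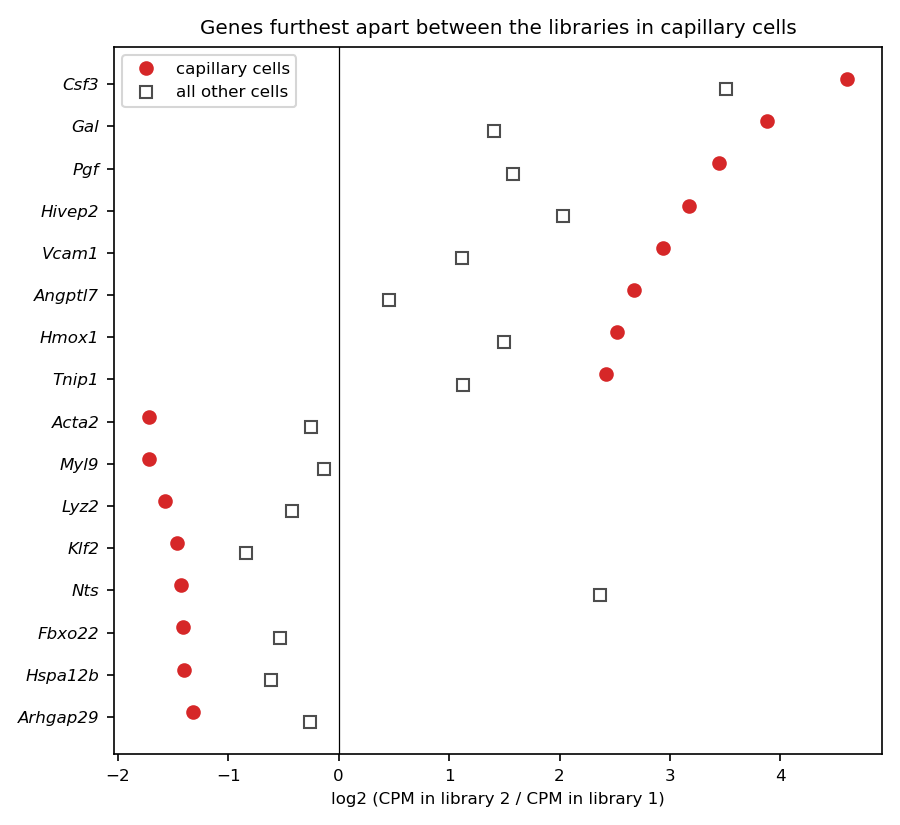
Log2 ratio of CPM in library 2 to CPM in library 1 for the 16 genes furthest apart in capillary cells, filled circles for capillary cells and open squares for all other cells. Csf3 stands at 4.60 in capillary cells and 3.51 in all other cells, and Nts at -1.42 and 2.37.

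The capillary genes could be followed in the bulk libraries, which the rule did not use. In bulk, fewer cells of a type and less RNA per cell cannot be told apart. The values are FPKM, tested with limma on log2(FPKM + 1). Timp4 was at 4.85, 4.66 and 2.31 FPKM in fresh SMMC, 0, 0 and 0.200 in proliferating SMMC, 0, 0.220 and 0.199 in differentiating SMMC, and 0.321 and 0.232 in MuSC. Cd300lg was at 1.11, 3.87 and 4.01 FPKM in fresh SMMC, listed at 0 in all 6 cultured SMMC libraries, and at 0.334 and 0.963 FPKM in MuSC. Gpihbp1 was at 1.23, 1.37 and 2.12 FPKM in fresh SMMC, listed at 0 in the 6 cultured libraries, and at 0.0754 and 0.132 FPKM in MuSC. All 3 genes passed in limma as higher in fresh SMMC than in MuSC, as did 41.7% of all genes tested. All 3 also passed as lower in proliferating SMMC, as did 35.4% of all genes tested. The levels are low beside Cldn5, at 25.9, 28.8 and 30.9 FPKM in fresh SMMC, against 0.531 and 0.371 FPKM in MuSC.

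Against MuSC, 5522 of 13233 genes (41.7%) were higher and 2384 (18%) lower in fresh SMMC, with a median log2 difference of 0.45 over all genes. TMM rescaling moved that median to 0.04 and gave 4130 higher and 3928 lower, and quantile normalization moved it to -0.04 with 3737 higher and 4027 lower. All 5 capillary rule genes were higher, with log2 differences from 1.13 to 1.91, as were 4 of 4 pan-endothelial genes tested. Under quantile normalization Cd300lg and Aqp7 did not pass, with adjusted p of 0.200 and 0.129, and Cd300lg did not pass without MuSC replicate 1, at 0.0876. Of the 20 leading genes, 19 were tested and 14 were higher and 0 lower, and without fresh SMMC replicate 3 that count was 8. Other genes of the class were at higher levels: Fabp4 averaged 121 ± 23.1 FPKM in fresh SMMC (SD, n = 3) and 2.65 ± 0.804 in MuSC (SD, n = 2). The venous rule gene Selp was at 21.8, 34.3 and 42.4 FPKM in fresh SMMC, against 0.954 and 2.77 FPKM in MuSC. Lrg1 was at 1.58, 3.05 and 3.24 FPKM, against 0.353 and 0.563 FPKM. Vwf was at 8.67, 14.4 and 7.66 FPKM, against 8.12 and 7.54 FPKM, and did not pass, at a limma adjusted p of 0.568.

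Proliferating SMMC had 4381 genes (33.1%) higher and 4680 (35.4%) lower than fresh SMMC, and quantile normalization gave 5039 higher and 4060 lower. The comparison shares the fresh libraries with the one above. All 5 capillary rule genes were lower, with log2 differences from -1.35 to -2.17, and 3 of 4 pan-endothelial genes were lower. The fourth, Egfl7, was at 6.83, 3.93 and 4.36 FPKM in proliferating SMMC, against 3.77, 5.90 and 6.76 FPKM in fresh SMMC, and its difference of -0.10 ± 0.27 (SE) did not pass. Of the leading genes, 14 of 19 were lower, 8 of 19 without fresh SMMC replicate 2 or 3, and 1 was higher. That was Unc45b, a myosin chaperone of muscle, at 6.79, 5.59 and 23 FPKM in proliferating SMMC, against 0.814, 0.227 and 0.621 FPKM in fresh SMMC. Tcf15, Kcna5 and C1qtnf9 were listed at 0 in all 3 proliferating libraries and also in the differentiating ones. Some leading genes were far above fresh SMMC in differentiating SMMC, a contrast that was not tested. Ablim3 averaged 109.8 FPKM against 2.83 in fresh SMMC, Unc45b 142.6 against 0.554 and Afap1l1 32.1 against 2.2. Rgcc averaged 0.348 ± 0.0254 FPKM in proliferating SMMC and 153 ± 44.9 FPKM in fresh SMMC (SD, n = 3 each).

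**Figure D5:**
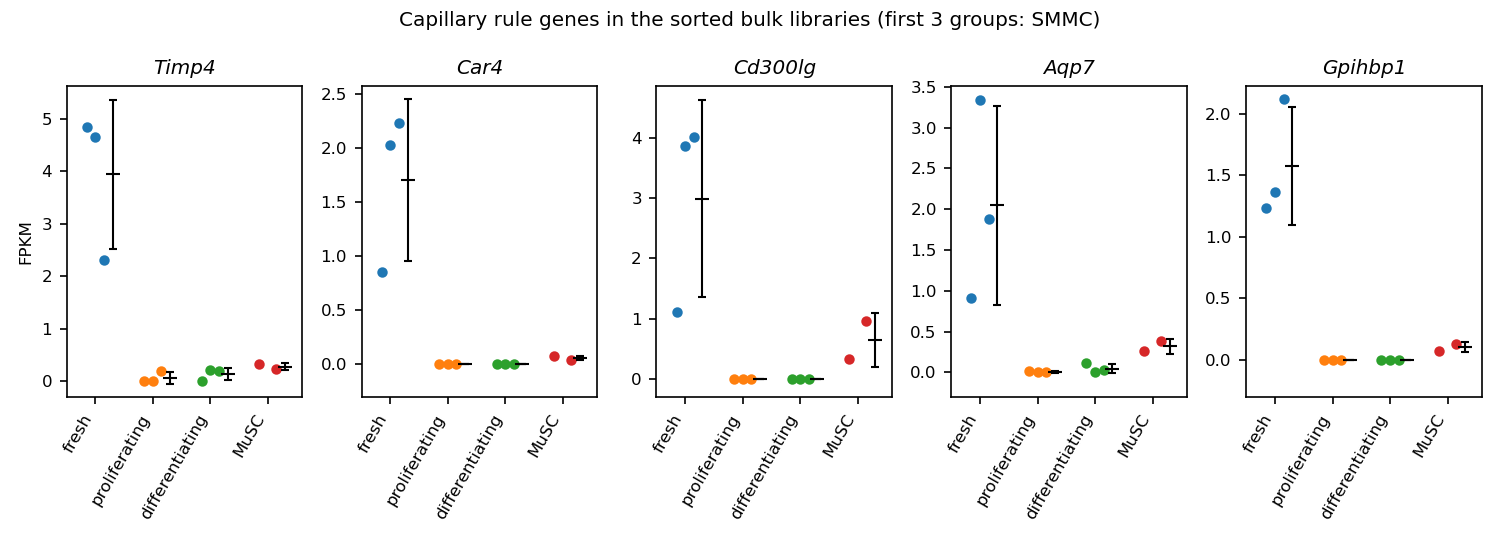
FPKM of the 5 capillary rule genes in the 11 bulk libraries, points for libraries and a dash with bars for mean ± SD of fresh, proliferating and differentiating SMMC (n = 3 each) and MuSC (n = 2). Fresh SMMC lie highest in each panel, with Timp4 at 2.31 to 4.85 FPKM, and Car4, Cd300lg and Gpihbp1 are listed at 0 in the cultured SMMC libraries.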

How the data were processed

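The single-cell values were raw UMI counts per gene and cell, as the authors deposited them, with 19353328 UMIs in library 1 and 15507938 in library 2. The bulk values were FPKM, as deposited, with unknown depth, and 4 FPKM columns that matched no sample were not used. The submitters' processing notes name build mm10, Cell Ranger (2.1.0, 2.2.0), STAR 2.5.1b, HISAT2 2.1.0, SAMtools 1.3.1, StringTie, Seurat (2.2, 2.3.4) and R (3.3.1, 3.4.3, 3.5.1). Filters on cells and the strand setting are not given in the sources used here.

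Members, gene lists and the rule for named genes were chosen with earlier results of these data known. Named were the largest ratios to all other cells at 100 CPM or more, the most abundant, most variable and most library-dependent genes, the 10 largest calls each way at 50 CPM or more against each gate, and list members.

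Ratios used a prior of 0.5 counts and genes with 10 or more UMIs. Sums were tested with edgeR 4.0.16 (TMM, filterByExpr, library block because the gates come from the same suspensions), with DESeq2 1.42.0 as an alternative, in R 4.3.3. The SE given with edgeR was worked back from the test, as the absolute log2 fold change over the square root of the quasi-likelihood F statistic. FPKM were tested with limma 3.58.1 on log2(FPKM + 1), which understates low genes, for genes at 1 FPKM or more in 2 libraries, all 11 libraries in 1 fit. Calls were two-sided at a Benjamini-Hochberg adjusted p of 0.05, and the fits were tested on simulated data. Scrublet (scanpy 1.11.5) called doublets, which were kept. No label ties a library to an animal, so each p-value reflects only variation among these libraries, which may be technical.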

Additional observations from a re-analysis of the deposited data

How the results depend on the processing

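Limits: the class exists only through its rule, droplet counts miss low transcripts, and 2 libraries allow no test of single-library fits, which have no residual degrees of freedom. The share of the class in library 1 was 12.3% with at least 3 capillary genes, 12.01% with no arterial or venous UMI, 12.3% after thinning and 15.5% without cells with pericyte genes. In library 2 it was 6.13%, 8.04% and 7.02% under the first 3. Against cells that are not endothelial, 669 genes were at least 4-fold higher. With 20 UMIs or more, 303 genes were higher and 548 lower in library 2. The 20 leading genes were at least 4-fold higher under all 9 alternatives, and 13 to 20 of them stayed among the leading 20.

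In the venous contrast, the numbers higher and lower were 230 and 292 after thinning, 205 and 255 with no replicate block, and 267 and 447 with DESeq2. Thinning left only 1619 genes to test in either contrast, against 6735 in the other 2 settings and the main fit. Its counts are therefore not comparable with theirs. In the arterial contrast they were 38 and 54, 1 and 16, and 34 and 99 under the same settings, and 180 were higher with no filter on low counts and 196 with only the 4 sums compared. Of the 20 genes named for the arterial contrast, 15 lost their call with no replicate block, and 2 of the venous 20 did. None of the genes named for these contrasts changed direction under the alternatives run. The alternatives without lymphatic-gene or pericyte-gene cells were chosen after seeing the data.

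In bulk, fresh SMMC against MuSC gave 3539 higher at 10 FPKM or more, and 4027 and 3928 lower with quantile normalization and TMM rescaling. Proliferating against fresh SMMC gave 2599 lower at 10 FPKM or more. Leaving out a library gave 4262 to 5453 higher and 1626 to 2242 lower in the first, and 4012 to 4396 higher and 4088 to 4572 lower in the second. Whether replicate numbers pair the libraries is not known. Deviations of same-numbered fresh and proliferating libraries correlated at 0.0845, 0.04 and 0.0605, and those of differently numbered ones at -0.0744 to 0.0417. Same-numbered fresh SMMC and MuSC libraries correlated at 0.117 and 0.0112. So few libraries cannot decide the question. With the replicate block, 5314 genes were higher and 2328 lower in the first comparison, and 4371 and 4668 in the second.

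Signs turned in library 2 against library 1 for Lyz2 (1.98) and Nts (0.043) after thinning and for Acta2 (0.68) without cells with pericyte genes. Egfl7 in proliferating SMMC turned to 0.19 with quantile normalization, 0.044 without fresh SMMC replicate 3 and 0.030 without proliferating SMMC replicate 2, and ranged from -0.31 to 0.044 over the libraries left out. The cause was not tested.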
